A study of Mus musculus with 6 samples.

Results

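Imprinted growth genes, which are transcribed mainly from the copy inherited from 1 parent, were followed in damaged mouse hepatocytes (dHeps) cultured with solvent or with a cocktail of small molecules. The set holds 34 of the 52323 genes in the deposited count table, selected by gene symbol from 16 imprinted clusters or single loci: H19 and Igf2; Igf2r and Airn; Dlk1, Meg3, Rian, Mirg, Rtl1 and Dio3; Plagl1; Peg3, Usp29 and Zim1; Cdkn1c, Kcnq1ot1, Phlda2 and Ascl2; Grb10; Mest; Sgce, Peg10, Asb4 and Ppp1r9a; Ndn, Magel2, Mkrn3 and Snrpn; Gnas; Nnat; Slc38a4; Impact; Zrsr1; and Peg13. The list was drawn up with the rise of H19 after 3C treatment in view. The values of 3C against DMSO are therefore given as a description without a test, and H19 is described without a test throughout. The members of most clusters sit close together on a chromosome and are not independent of each other.

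At an imprinted locus, DNA methylation set in the egg or the sperm marks a control region, and only the copy from the other parent, or only the marked copy, is transcribed. Many genes expressed from the paternal copy, such as Igf2, Peg3 and Mest, promote growth of the embryo and placenta, while several maternally expressed genes, such as H19, Igf2r, Cdkn1c and Grb10, restrain it. In the mouse liver, H19 and Igf2 are abundant before birth and are largely shut off in the weeks after it. The libraries were not sequenced to separate parental alleles, so a level here is the sum of both copies, and nothing below bears on which copy was active.

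The dHeps came from CCl4-injured mice that, per the labels, carried the Rosa-LSL-tdTomato reporter and had received AAV-TBG-Cre. In the methods for these mice, of C57BL/6 background, the virus was given at 8 to 10 weeks of age and CCl4, a hepatotoxin, afterwards for 12 weeks. Cre was driven by the liver-specific TBG promoter and delivered by a virus, mice of both sexes were used, and all groups shared the injury, the reporter and a serum-free medium until collection on day 16. DMSO-treated dHeps received solvent alone. The 3C cocktail contained 50 µM CID755673 (a protein kinase D inhibitor), 2 µM GSK429286A (a ROCK inhibitor) and 5 µM ETC-1002 (used as an AMPK activator), and the 5C cocktail contained these plus 5 µM salidroside (a plant glycoside) and 2 µM forskolin, which raises cyclic AMP by activating adenylate cyclase. The 6 libraries fall into 3 groups of 2. The labels do not say whether replicates came from different animals, so p-values measure the spread between these libraries, which may be technical.

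Library totals ranged from 65916573 to 69245895 estimated counts. Levels are given as estimated counts scaled to the library total (CPM), first for replicate 1 and then for replicate 2. The floor of detection, 3 fragments at an assumed 4 count units each, lay at 0.173 to 0.182 CPM and covers counting error only. Hepatocyte markers were present in every library, but so were those of other liver cells: the summed level of 14 macrophage markers was 13508 and 14628 CPM in DMSO, 4634 and 4634 CPM in 3C, and 3134 and 3108 CPM in 5C, while the sum of 14 hepatocyte markers was 2498 and 2115 CPM, 11140 and 11585 CPM, and 11080 and 16021 CPM. The samples are bulk RNA, so fewer cells of a type and less RNA per cell cannot be told apart.

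Of the 34 imprinted genes, 33 passed the filter on low values and were tested with all other genes. Magel2 did not, with 4 estimated counts in a single DMSO library and none elsewhere. A further 4 genes stayed under 1 CPM in every library and are given by their ranges: Mirg at 0.337 to 0.804 CPM, Rtl1 at 0 to 0.561 CPM, Usp29 at 0.0607 to 0.91 CPM and Zim1 at 0 to 0.375 CPM. None of these 4 passed the adjusted p in 5C against DMSO or against 3C by edgeR. The other 29 reached 1 CPM in at least 1 library. Per length, Gnas was the most abundant of them, with a mean of 481 FPKM in DMSO and 516 FPKM in 5C. In 5C it was followed by Grb10 at 51.6 FPKM, H19 at 45.1 FPKM, Slc38a4 at 42.9 FPKM and Sgce at 28.0 FPKM. The SD of H19 was 21.7 FPKM, so its place among its neighbours in that order is not fixed by these libraries.

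**Figure D1:**
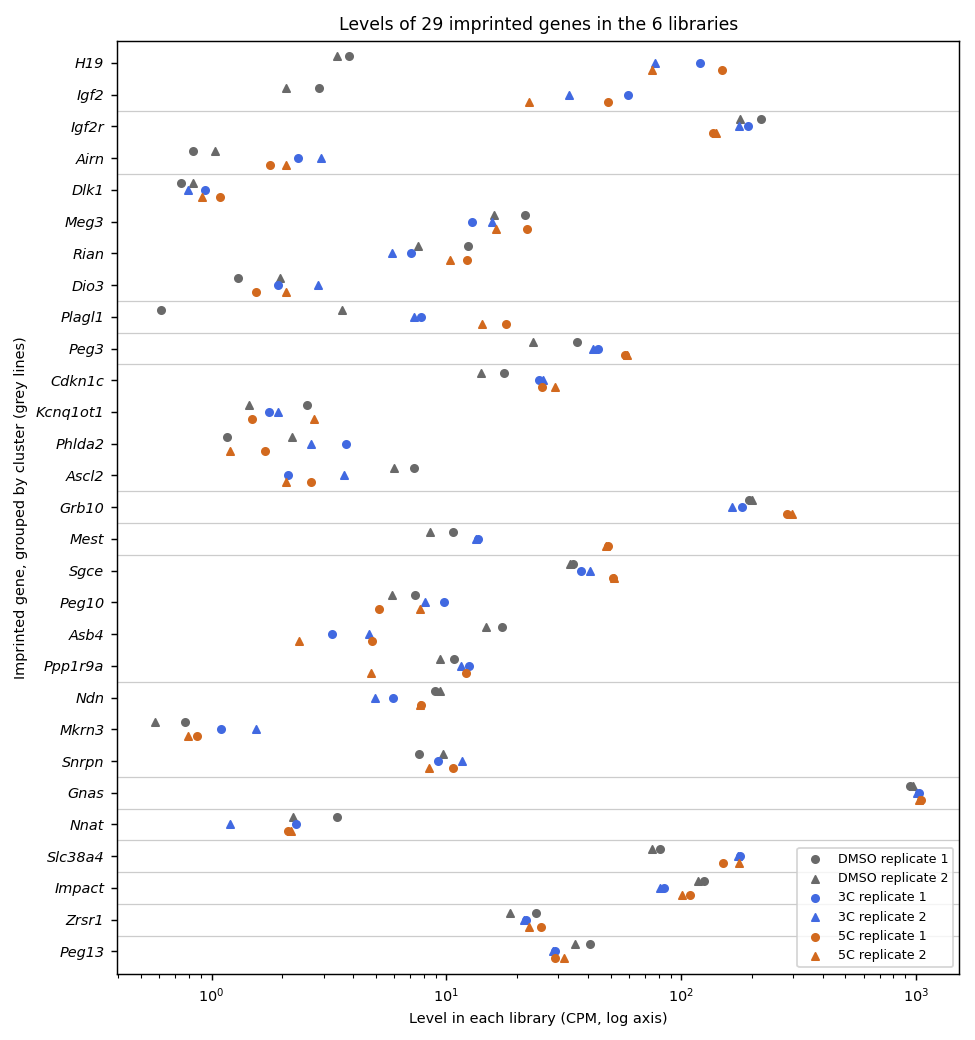
Level of each imprinted gene that reached 1 CPM, in CPM on a log axis, with 1 point per library (grey, DMSO; blue, 3C; orange, 5C; circle, replicate 1; triangle, replicate 2) and grey lines between clusters. H19 and Igf2 stand furthest apart from their DMSO levels, Mest is high in 5C at 48.9 and 47.8 CPM beside 13.6 and 13.3 CPM in 3C, and most other genes lie close together.

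A gene was called when its adjusted p, from edgeR's quasi-likelihood test with Benjamini-Hochberg adjustment over all 19135 genes tested, was under 0.05 and its absolute log2 fold change was above 1. The counts that follow leave out H19. In 5C against DMSO, 6 of the 32 other imprinted genes (18.8%) were called, beside 11.7% of all genes tested. The 6 were Igf2, Airn, Mest and Slc38a4, which were higher, and Ascl2 and Asb4, which were lower. The median log2 fold change over the 32 was 0.17, beside 0.00 over all genes. In 5C against 3C, 1 of 32 was called (3.12%, beside 3.01% of all genes), and that gene was Mest. The median was 0.18, beside -0.01 over all genes. The count in 5C against 3C was 2 without either DMSO library, where Plagl1 was added, and 2 without 5C replicate 1, where Ppp1r9a was added. In 3C against DMSO, the comparison in view when the list was drawn up, 5 of 32 lay past the same limits and 3 without DMSO replicate 1, beside 9.45% of all genes; nothing is read from that count. Both comparisons with DMSO rest on the same 2 solvent libraries and are not independent of each other. The adjusted p alone was passed by 11 of 32 imprinted genes in 5C against DMSO, beside 28.7% of all genes, and by 6 of 32 in 5C against 3C, beside 12.7%. In 5C against DMSO the libraries of the groups did not overlap for 21 of 32 imprinted genes (65.6%), beside 63.1% of all genes.

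**Figure D2:**
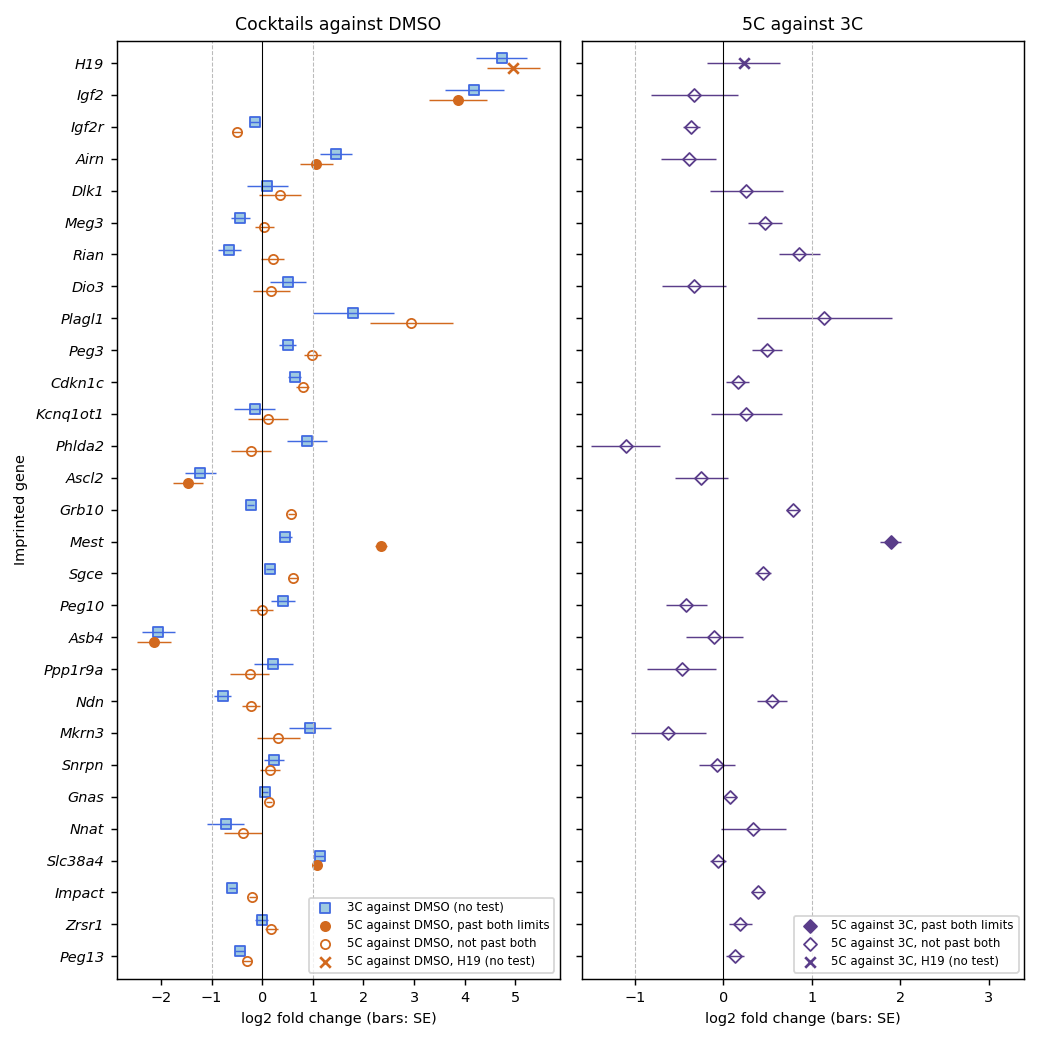
Log2 fold change of each imprinted gene with its SE, against DMSO on the left (blue squares, 3C, without a test; orange, 5C) and for 5C against 3C on the right (purple). Filled orange or purple points passed both the adjusted p and the fold limit (dashed lines at -1 and 1), crosses mark H19, which was not tested, and on the right Mest at 1.89 is the only filled point.

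H19, a long noncoding RNA expressed from the maternal copy, and Igf2, the fetal growth factor expressed from the paternal copy of the neighbouring gene, were the members that differed most between solvent and cocktails. H19 lies on chr7:142129262-142133957 (GRCm39, minus strand), and the start site of Igf2 (chr7:142204503-142220694, minus strand) lies 86.7 kb from that of H19. H19 was at 3.86 and 3.43 CPM in DMSO, at 120 and 77.0 CPM in 3C, and at 149 and 75.2 CPM in 5C. Every cocktail library was thus far above both DMSO libraries, and the cocktails overlapped. The fitted log2 fold change of H19 was 4.73 in 3C against DMSO, 4.96 in 5C against DMSO and 0.23 in 5C against 3C.

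Igf2 had a like order of libraries. It was at 2.86 and 2.08 CPM in DMSO, 59.3 and 33.2 CPM in 3C, and 48.9 and 22.5 CPM in 5C. The groups treated with cocktails did not overlap with DMSO but overlapped with each other. Igf2 was 14.6-fold higher in 5C than in DMSO (log2 fold change 3.87, SE 0.58, adjusted p = 0.0118), and its log2 fold change was 4.19 in 3C against DMSO. Between the cocktails, 5C against 3C, it was -0.33 (SE 0.49, adjusted p = 0.781). The call in 5C was lost when either DMSO library was left out, with adjusted p = 0.124 without replicate 1 and 0.135 without replicate 2, at log2 fold changes of 4.10 and 3.67. Replicate 1 was higher than replicate 2 for both genes in both cocktails, by 1.56 times for H19 and 1.78 times for Igf2 in 3C, and by 1.98 and 2.18 times in 5C. For the sums of 6 lists of liver cell markers, the ratios of replicate 1 to replicate 2 ran from 0.95 to 1.11 in 3C and from 0.692 to 1.13 in 5C. A sum follows its most abundant genes, and a single marker can differ more between replicates, as Pecam1 did (below). The cause of the replicate difference of H19 and Igf2 was not tested.

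Per length, H19 exceeded Igf2 in every library. The ratio of their FPKM was 2.98 and 2.74 in DMSO, 3.61 and 4.15 in 3C, and 5.55 and 5.98 in 5C. The ratios of the 3 groups did not overlap and were highest in 5C. An annotated readthrough gene, Gm49394, covers 58.4% of the exonic bases of Igf2 on the same strand and was listed at 0 in all 6 libraries. How the counting split reads between them is not given in the sources used here, so the level of Igf2 is uncertain to that extent.

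Both genes also host microRNAs. The mature sequences (RefSeq, GRCm38.p6) are shown because they are the short products that these transcripts can give, with the seed, bases 2 to 8, in capitals.
mmu-miR-675-5p: uGGUGCGGaaagggcccacagu
mmu-miR-675-3p: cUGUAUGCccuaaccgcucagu
mmu-miR-483-5p: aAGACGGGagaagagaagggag
mmu-miR-483-3p: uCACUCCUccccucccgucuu
The first pair lies in an exon of H19 and the second in an intron of Igf2, and no seed is shared among the 4. Mature microRNAs are not captured by this kind of library: the locus of miR-675 had at most 1 estimated count in a library and 6 over all libraries, and that of miR-483 had 0 in all, so nothing here measures them.

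Igf2 has 4 promoters in the RefSeq table, and 1 of them holds TGCCGC, the motif bound by the zinc-finger protein ZFP57 when methylated, or its reverse complement GCGGCA (capitals). It spans chr7:142661222-142661521 on the minus strand (GRCm38.p6), from 250 bases before to 50 after the start, and is printed 5′ to 3′.
Igf2 promoter: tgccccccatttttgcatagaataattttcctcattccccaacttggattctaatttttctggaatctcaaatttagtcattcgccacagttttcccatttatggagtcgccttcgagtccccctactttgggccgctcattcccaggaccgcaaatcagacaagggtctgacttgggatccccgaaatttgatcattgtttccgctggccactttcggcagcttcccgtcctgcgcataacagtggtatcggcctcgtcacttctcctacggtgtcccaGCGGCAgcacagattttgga
On either strand, the ZFP57 motif occurred in promoters of 8 of the 27 imprinted genes with a promoter in the table (29.6%: Grb10, Igf2, Meg3, Mest, Nnat, Plagl1, Snrpn and Zim1), beside 13.1% of all 27025 genes with one. A gene with more promoters has more windows that can match. Per promoter the motif occurred in 9 of 44 (20.5%), beside 11.6% of all 32851, and the matching Mest windows overlap. The sequence GGGGCCCC, bound by PLAGL1, occurred for 3 of the 27 (11.1%: Peg3, Ppp1r9a and Usp29), beside 1.25% of all genes. The windows of Peg3 and Usp29 overlap on opposite strands and hold the same match, so it is counted for both genes. No member had both. These are matches of letters in windows of 300 bases, not measured sites.

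The genes around H19 on distal chromosome 7 did not share a direction. In a window from 250 kb on the far side of H19 to 1100 kb beyond it, 29 genes were tested, of which 6 are members. Of the 23 others, 2 were called higher and 4 lower in 5C against DMSO, beside 7.30% and 4.42% of all genes, and by edgeR none was called in 5C against 3C, where 6 had an unadjusted p under 0.05 and DESeq2 called 0. Mrpl23, the gene nearest to H19 on the far side, had a log2 fold change of 0.22 (adjusted p = 0.192) in 5C against DMSO. Ctsd, encoding the lysosomal protease cathepsin D, was at 8244 and 9417 CPM in DMSO and 3022 and 2803 CPM in 5C (log2 fold change -1.58, adjusted p = 2.56e-06), a direction it shared with the macrophage markers. Kcnq1, a potassium channel gene that carries the Kcnq1ot1 start site in an intron, is named here after its values were seen. It was at 0.119 and 0 CPM in DMSO, which is under the floor, 1.68 and 2.99 CPM in 3C, and 1.80 and 1.66 CPM in 5C.

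**Figure D3:**
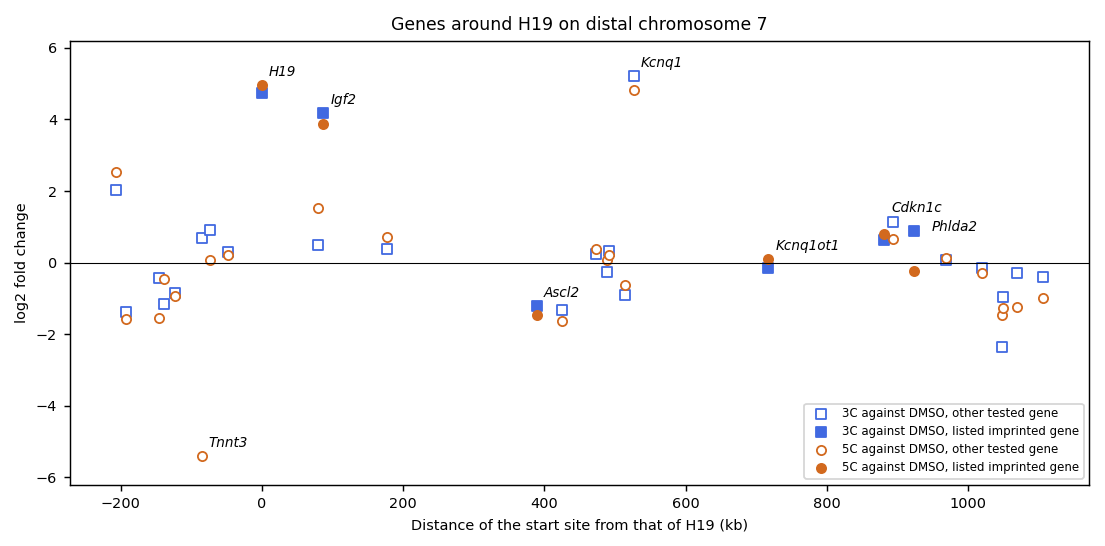
Fitted log2 fold change against DMSO (blue squares, 3C; orange circles, 5C) of the 29 tested genes around H19, by distance of their start site from that of H19 in kb, with members of the imprinted set filled. H19 and Igf2 lie near 4 to 5 in both cocktails, while the 23 genes outside the set lie on both sides of 0, with 2 called higher and 4 lower in 5C; the fits of Kcnq1 and Tnnt3 rest on groups at or near 0 counts and are no measure of size.

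The other end of this chromosomal region holds Cdkn1c, Kcnq1ot1, Phlda2 and Ascl2, and these did not share a direction. Ascl2, a basic helix-loop-helix factor needed by the placenta, was at 7.27 and 5.96 CPM in DMSO, 2.11 and 3.66 CPM in 3C, and 2.64 and 2.07 CPM in 5C. It was 2.78-fold lower in 5C than in DMSO (log2 fold change -1.47, SE 0.30, adjusted p = 0.00594), and its log2 fold change in 3C was -1.22. Cdkn1c encodes p57, an inhibitor of cyclin-dependent kinases. It was at 17.6 and 14.1 CPM in DMSO, 24.7 and 25.7 CPM in 3C, and 25.5 and 28.9 CPM in 5C, which passed the adjusted p but not the fold limit in 5C against DMSO (log2 fold change 0.80, SE 0.13, adjusted p = 0.00153). An antisense RNA, Gm44732, that shares 29% of its exonic bases had at most 3 estimated counts in a library.

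Kcnq1ot1 is the long antisense RNA of this domain, expressed from the paternal copy. It was at 2.55 and 1.44 CPM in DMSO, 1.75 and 1.91 CPM in 3C, and 1.49 and 2.73 CPM in 5C, and all groups overlapped. Kcnq1 lies on the opposite strand and shares 0.889% of the exonic bases of Kcnq1ot1. Without strand, reads from the introns of Kcnq1 cannot be told apart from reads of Kcnq1ot1, so the level of Kcnq1ot1 is uncertain to that extent. Phlda2, which restrains placental growth, was at 1.16 and 2.21 CPM in DMSO, 3.73 and 2.65 CPM in 3C, and 1.68 and 1.20 CPM in 5C. Its 3C libraries lay above all others, and the difference of 5C from 3C did not pass the test (log2 fold change -1.10, SE 0.39, adjusted p = 0.112).

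On chromosome 17, Igf2r encodes the receptor that takes up IGF2 and delivers it to lysosomes, and Airn is a long RNA that starts in an intron of Igf2r and runs in the opposite direction. Igf2r (chr17:12901293-12988614) was at 219 and 178 CPM in DMSO, 192 and 176 CPM in 3C, and 137 and 140 CPM in 5C. It was lower in 5C than in both other groups by less than the fold limit, with log2 fold changes of -0.50 (SE 0.10, adjusted p = 0.00397) against DMSO and -0.36 (SE 0.10, adjusted p = 0.0393) against 3C. The DMSO and 3C libraries overlapped.

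Airn (chr17:12960198-13079299) was at 0.834 and 1.03 CPM in DMSO, 2.34 and 2.92 CPM in 3C, and 1.78 and 2.08 CPM in 5C. The log2 fold change in 5C against DMSO was 1.07 (SE 0.32, adjusted p = 0.0361). This call did not hold when any of the 6 libraries was left out (adjusted p from 0.0557 to 0.158), nor with 4 libraries in the fit (adjusted p = 0.0729). In 3C against DMSO the log2 fold change was 1.46. The exons annotated for the genes share no base, but the library kit does not mark strand, so reads from the introns of Igf2r cannot be told apart from reads of unspliced Airn.

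Mest was called in both comparisons of 5C, and Plagl1 had the same order of groups without a call. Mest encodes a hydrolase-like protein of the mesoderm that is expressed from the paternal copy, and lies on chr6:30723546-30752058. It was at 10.7 and 8.48 CPM in DMSO, 13.6 and 13.3 CPM in 3C, and 48.9 and 47.8 CPM in 5C. The groups did not overlap, and the step from 3C to 5C was the larger. Mest was 5.11-fold higher in 5C than in DMSO (log2 fold change 2.35, SE 0.12, adjusted p = 1.96e-06) and 3.72-fold higher than in 3C (log2 fold change 1.89, SE 0.12, adjusted p = 0.000119), and it was called in both comparisons under every alternative. The log2 fold change in 3C against DMSO was 0.46.

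Mest shares 47.7% of its exonic bases with Copg2, a coat-protein gene on the opposite strand, and without strand the reads of that stretch cannot be assigned to either. Copg2 was at 58.0 and 56.7 CPM in DMSO, 65.7 and 69.5 CPM in 3C, and 70.5 and 72.6 CPM in 5C (log2 fold change of 5C against 3C 0.13, adjusted p = 0.307). The mesothelial markers moved with Mest. Their sum over 10 genes was 1298 and 1056 CPM in DMSO, 1554 and 1394 CPM in 3C, and 2676 and 2561 CPM in 5C, and 5 of 10 were called higher in 5C against 3C and none lower, Gpm6a (log2 fold change 1.26) and Upk1b (1.20) furthest, with Upk3b (1.11) and Wt1 (1.06). Their part in the level of Mest was not tested.

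Mest hosts miR-335 in an intron, and its 2 mature sequences have different seeds (capitals, bases 2 to 8).
mmu-miR-335-5p: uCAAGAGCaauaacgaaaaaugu
mmu-miR-335-3p: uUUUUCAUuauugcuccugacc
Of the 3 Mest promoters in the RefSeq table, which partly overlap, that on chr6:30737800-30738099 (GRCm38.p6, plus strand) holds GCGGCA, the reverse complement of the ZFP57 motif, at 2 places (capitals).
Mest promoter: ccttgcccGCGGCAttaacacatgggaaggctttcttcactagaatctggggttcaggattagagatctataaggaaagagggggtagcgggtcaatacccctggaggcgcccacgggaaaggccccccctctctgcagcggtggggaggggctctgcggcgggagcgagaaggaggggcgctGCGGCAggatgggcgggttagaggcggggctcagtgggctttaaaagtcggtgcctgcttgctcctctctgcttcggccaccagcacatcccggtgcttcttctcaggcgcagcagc

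Plagl1 encodes a zinc-finger transcription factor, expressed from the paternal copy, that is known to bind other imprinted genes of this set, H19 and Igf2 among them. It was at 0.610 and 3.60 CPM in DMSO, 7.79 and 7.27 CPM in 3C, and 17.9 and 14.2 CPM in 5C. The groups did not overlap, but the DMSO libraries differed from each other by 5.89 times in estimated counts. Per length they were closer, at 0.508 and 0.885 FPKM, beside 1.84 and 1.69 FPKM in 3C and 3.72 and 3.91 FPKM in 5C. In 5C against DMSO the log2 fold change was 2.94 (SE 0.82, adjusted p = 0.0656), which was not called. It was called without DMSO replicate 1 (log2 fold change 2.16, adjusted p = 0.000211), without DMSO replicate 2 (4.74, adjusted p = 1.01e-05) and with DESeq2 (2.95, adjusted p = 0.0074). Plagl1 was also called in 5C against DMSO with counts divided by 4 (2.96, adjusted p = 0.0283). With limma it was called on log2(FPKM + 1) (1.51, adjusted p = 0.000292) and on log2(FPKM + 0.1) (2.34, adjusted p = 0.000384). In 5C against 3C the log2 fold change was 1.14 (SE 0.76, adjusted p = 0.474), and in the 4 libraries of these groups alone, without the DMSO spread, the adjusted p was 0.00261. Its promoter in the RefSeq table, chr10:13090582-13090881 (GRCm38.p6, plus strand), is the third shown, with the GCGGCA match in capitals.
Plagl1 promoter: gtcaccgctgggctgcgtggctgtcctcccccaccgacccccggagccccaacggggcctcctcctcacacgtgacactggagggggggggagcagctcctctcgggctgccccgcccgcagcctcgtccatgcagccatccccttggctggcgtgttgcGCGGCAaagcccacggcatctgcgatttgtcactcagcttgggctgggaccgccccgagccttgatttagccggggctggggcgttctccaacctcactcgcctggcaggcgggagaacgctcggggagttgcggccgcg

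**Figure D4:**
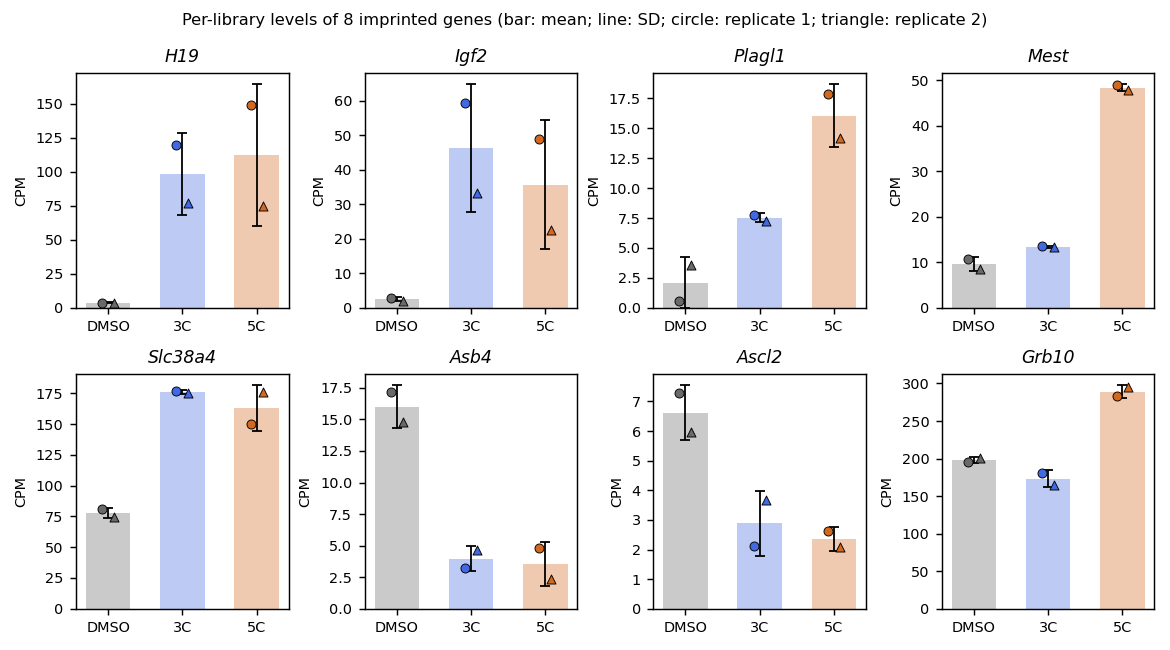
Levels in CPM of 8 imprinted genes by group, with bars for the mean of 2 libraries, lines for the SD, and a circle and a triangle for replicates 1 and 2. H19 and Igf2 were high in both cocktails with replicate 1 above replicate 2, Mest and Grb10 were high in 5C, and Asb4 and Ascl2 were highest in DMSO.

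Peg3, a paternally expressed zinc-finger gene, followed a similar order in smaller steps. It was at 36.0 and 23.4 CPM in DMSO, 44.1 and 42.0 CPM in 3C, and 57.7 and 59.0 CPM in 5C, with no overlap between groups. The difference of 5C from DMSO passed the adjusted p and fell just short of the fold limit (log2 fold change 0.99, SE 0.17, adjusted p = 0.0041). It exceeded that limit without DMSO replicate 1 (1.32) and without 5C replicate 1 (1.02). Against 3C it was 0.49 (adjusted p = 0.122).

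Grb10 encodes an adaptor protein that dampens signalling from the insulin and IGF1 receptors. It was at 195 and 201 CPM in DMSO, 181 and 165 CPM in 3C, and 283 and 295 CPM in 5C. The level in 5C was above that of both other groups by less than the fold limit, with log2 fold changes of 0.57 (SE 0.07, adjusted p = 0.000443) against DMSO and 0.79 (SE 0.07, adjusted p = 0.00043) against 3C. The value in 3C against DMSO was -0.23.

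Slc38a4 encodes a system A amino acid transporter that is abundant in liver and was on chr15:96892693-96958593. Its level was 80.9 and 74.9 CPM in DMSO, 177 and 175 CPM in 3C, and 150 and 176 CPM in 5C. It was 2.12-fold higher in 5C than in DMSO (log2 fold change 1.08, SE 0.09, adjusted p = 2.55e-05), and the log2 fold change fell to 0.95, under the limit, without 5C replicate 2. The cocktails overlapped (5C against 3C -0.06, SE 0.09, adjusted p = 0.763). Its rise accompanied that of the hepatocyte markers, of which 13 of 14 were called higher in 5C against DMSO and 1 of 14 was not called, with Cyp3a11 (log2 fold change 7.95), Fabp1 (6.92), Apoa2 (5.83) and Cyp2e1 (4.56) furthest. The part of these cells in the level of Slc38a4 was not tested.

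Within the Peg10-Sgce cluster on chromosome 6, Asb4 was the only member called in 5C against DMSO. It encodes a subunit of a ubiquitin ligase. Its level was 17.2 and 14.8 CPM in DMSO, 3.25 and 4.66 CPM in 3C, and 4.81 and 2.35 CPM in 5C. Asb4 was 4.42-fold lower in 5C than in DMSO (log2 fold change -2.14, SE 0.33, adjusted p = 0.00153) and had a log2 fold change of -2.05 in 3C. Sgce, encoding epsilon-sarcoglycan, was at 34.7 and 33.6 CPM in DMSO, 37.3 and 41.0 CPM in 3C, and 51.2 and 51.9 CPM in 5C, and passed the adjusted p in 5C against DMSO (log2 fold change 0.61, SE 0.09, adjusted p = 0.000642) and against 3C (0.45, SE 0.09, adjusted p = 0.00937).

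Peg10, a retrotransposon-derived gene next to Sgce that is needed for the placenta, was at 7.34 and 5.84 CPM in DMSO, 9.77 and 8.12 CPM in 3C, and 5.17 and 7.68 CPM in 5C. Ppp1r9a, which encodes the actin-binding protein neurabin, was at 10.8 and 9.39 CPM, 12.5 and 11.5 CPM, and 12.1 and 4.77 CPM in the same order. Neither passed the adjusted p in 5C. The 5C libraries of Ppp1r9a differed by 2.53 times, and without 5C replicate 1 it was called lower than DMSO (log2 fold change -1.05).

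The Dlk1-Dio3 cluster on chromosome 12, whose maternally expressed RNAs Meg3, Rian and Mirg carry many microRNAs and snoRNAs, had no member called by edgeR or by DESeq2 in either comparison of 5C. Of its 6 genes, 0 had an unadjusted p under 0.05 in 5C against DMSO and 2 did in 5C against 3C. Meg3 was at 21.7 and 16.0 CPM in DMSO, 12.9 and 15.6 CPM in 3C, and 22.1 and 16.2 CPM in 5C. Rian was at 12.3 and 7.60 CPM in DMSO, 7.07 and 5.85 CPM in 3C, and 12.2 and 10.4 CPM in 5C. For both RNAs the 3C libraries were the lowest, and Rian passed the adjusted p in 5C against 3C (log2 fold change 0.86, SE 0.23, adjusted p = 0.0409), while Meg3 did not (0.47, SE 0.19, adjusted p = 0.157). In 5C against DMSO their log2 fold changes were 0.21 (adjusted p = 0.566) and 0.04 (adjusted p = 0.912).

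Dlk1, which encodes a Notch-like surface protein of fetal hepatoblasts, was near the lower end of what was measured: 0.744 and 0.834 CPM in DMSO, 0.936 and 0.792 CPM in 3C, and 1.09 and 0.910 CPM in 5C. By estimated counts, the difference of 5C from DMSO was within its error (log2 fold change 0.35, SE 0.41, adjusted p = 0.59). Per length, Dlk1 was at 0.297 and 0.172 FPKM in DMSO, 0.505 and 0.419 FPKM in 3C, and 0.537 and 0.461 FPKM in 5C. By that measure both cocktails lay above DMSO, so the reading of Dlk1 depends on the measure. Dio3, the deiodinase that inactivates thyroid hormone, was at 1.30 and 1.96 CPM in DMSO, 1.92 and 2.83 CPM in 3C, and 1.55 and 2.08 CPM in 5C, and its groups overlapped. By estimated counts, H19 and Igf2 were thus high in the cocktails while Dlk1, Meg3 and Dio3 had log2 fold changes of 0.35 or less in 5C against DMSO.

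Of the Ndn-Snrpn cluster on chromosome 7, Ndn, encoding the growth suppressor necdin, was at 8.93 and 9.36 CPM in DMSO, 5.95 and 4.97 CPM in 3C, and 7.77 and 7.70 CPM in 5C. The groups did not overlap and 3C was the lowest, but neither difference of 5C passed the adjusted p (0.388 against DMSO and 0.0714 against 3C). Snrpn, a splicing-factor gene, was at 7.65 and 9.65 CPM, 9.21 and 11.6 CPM, and 10.7 and 8.42 CPM, and its groups overlapped. It shares 13.3% of its exonic bases with Gm38393, which was at 0.357 to 1.03 CPM. Mkrn3, an E3 ubiquitin ligase gene, was at 0.774 and 0.576 CPM, 1.10 and 1.55 CPM, and 0.869 and 0.794 CPM.

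None of the remaining single loci was called in either comparison of 5C. Gnas, which encodes the stimulatory G protein alpha subunit that couples receptors to adenylate cyclase, was at 945 and 966 CPM in DMSO, 1031 and 1011 CPM in 3C, and 1050 and 1028 CPM in 5C (5C against DMSO log2 fold change 0.14, SE 0.06, adjusted p = 0.153). This value sums all its transcripts, of which only some are imprinted. Impact, which restrains the stress kinase GCN2, was at 125 and 118 CPM in DMSO, 84.0 and 81.0 CPM in 3C, and 109 and 101 CPM in 5C. It was higher in 5C than in 3C (log2 fold change 0.39, SE 0.07, adjusted p = 0.00549) and not past the adjusted p against DMSO (-0.20, SE 0.07, adjusted p = 0.0522). Its log2 fold change in 3C against DMSO was -0.59.

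Peg13, a noncoding RNA within Trappc9 and on the same strand, was at 40.8 and 35.2 CPM in DMSO, 29.1 and 28.4 CPM in 3C, and 29.0 and 31.8 CPM in 5C. It shares 27.4% of its exonic bases with Trappc9, so its level is uncertain, and its difference in 5C from DMSO did not pass the adjusted p (log2 fold change -0.30, SE 0.10, adjusted p = 0.0582). Zrsr1, a splicing-factor retrogene, was at 24.0 and 18.7 CPM, 21.8 and 21.4 CPM, and 25.2 and 22.5 CPM. Nnat, which encodes the small membrane protein neuronatin, was at 3.42 and 2.23 CPM, 2.29 and 1.20 CPM, and 2.11 and 2.17 CPM. Neither gene passed the adjusted p in 5C.

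By the parental copy that is usually active, 4 of 20 tested paternally expressed genes were called in 5C against DMSO, each higher (Igf2, Airn, Mest and Slc38a4), with a median log2 fold change of 0.25. Among 11 maternally expressed genes, H19 left out, 2 were called, both lower (Ascl2 and Asb4), with a median of -0.22. Of all genes tested, 7.30% were called higher and 4.42% lower. The difference between these classes was not tested, and clustered genes are not independent of each other.

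Companion genes gave the setting. Among 18 regulators of imprints, which establish, maintain or read methylation at these loci, none was called in either comparison of 5C by edgeR or by DESeq2, and 5 in 5C against DMSO and 3 in 5C against 3C had an unadjusted p under 0.05. Setdb1, a histone methyltransferase recruited by ZFP57 and TRIM28, passed the adjusted p alone in 5C against DMSO (log2 fold change -0.56, adjusted p = 0.00144), as did Smchd1 (-0.40, adjusted p = 0.0159) and the maintenance methyltransferase Dnmt1 (-0.33, adjusted p = 0.0182). Zfp57 was at 35.6 to 47.9 CPM over the 6 libraries (5C against DMSO -0.02, adjusted p = 0.938). None of the 18 passed the adjusted p in 5C against 3C. Of all genes tested, 28.7% passed the adjusted p in 5C against DMSO and 12.7% in 5C against 3C. Among 25 other imprinted genes tested, 1 was called higher in 5C against DMSO, Tfpi2 (log2 fold change 1.11), an inhibitor of serine proteases, and 2 lower, Tspan32 (-1.62) and Pon2 (-1.08), and none was called in 5C against 3C by edgeR or by DESeq2, where 9 had an unadjusted p under 0.05.

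Of 16 genes of the IGF axis, 1 was called higher in 5C against DMSO and none lower. That gene was Igfbp2, a binding protein for IGFs that is abundant in fetal liver, at 0.462 and 0.228 CPM in DMSO, 2.37 and 2.43 CPM in 3C, and 4.21 and 4.04 CPM in 5C (log2 fold change 3.60, SE 0.38, adjusted p = 0.000107). The receptor gene Igf1r had a log2 fold change of 0.05 (adjusted p = 0.673). Igf1, the postnatal growth factor, passed the adjusted p without exceeding the fold limit (mean 30.5 CPM in DMSO and 15.1 CPM in 5C, adjusted p = 0.00242). In 5C against 3C, 1 of the 16 was called, Igf2bp1, which encodes an RNA-binding protein of Igf2 mRNA: it was at 1.92 and 1.29 CPM in DMSO, 3.35 and 3.39 CPM in 3C, and 0.709 and 1.04 CPM in 5C (log2 fold change -1.89, SE 0.35, adjusted p = 0.0082).

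Of 9 tested fetal liver genes and their repressors, 2 were called higher and 1 lower in 5C against DMSO. Afp, the fetal serum protein alpha-fetoprotein, which like H19 is silenced after birth, was at 19.5 and 18.9 CPM in DMSO, 131 and 90.4 CPM in 3C, and 58.3 and 59.5 CPM in 5C (5C against DMSO log2 fold change 1.64, SE 0.16, adjusted p = 0.000243). Gpc3, the oncofetal glypican, was at 59.9 and 36.9 CPM, 161 and 159 CPM, and 310 and 329 CPM, and was called higher in 5C than in DMSO (2.74, SE 0.22, adjusted p = 0.000332) and than in 3C (1.05, SE 0.21, adjusted p = 0.0282). Hmga2, a fetal chromatin protein, was called lower in 5C than in DMSO (-1.86, adjusted p = 0.000126) and than in 3C (-1.19, adjusted p = 0.00459). Zhx2 and Zbtb20, repressors of Afp, were not called, with log2 fold changes of 0.12 and -0.11 in 5C against DMSO. Zfhx3, also on this list, passed the adjusted p but not the fold limit (-0.56, SE 0.18, adjusted p = 0.0465). It was at 49.9 and 32.1 CPM in DMSO, 30.5 and 32.0 CPM in 3C, and 27.3 and 27.3 CPM in 5C. Lin28b was listed at 0 in every library.

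Markers of other liver cells differed between the groups as well. Of 14 macrophage markers, 12 were called lower in 5C against DMSO and none higher, with a median log2 fold change of -2.02, Marco (-2.95), Lyz2 (-2.44), Adgre1 (-2.32) and Cd163 (-2.12) furthest. These moved in the same direction as Asb4, Ascl2 and Igf2r in 5C against DMSO. In 3C the summed macrophage markers were also below DMSO (4634 and 4634 CPM beside 13508 and 14628 CPM), whereas Igf2r overlapped with DMSO. The part of macrophages in the levels of these 3 genes was not tested. Among 14 stellate cell and fibroblast markers 4 were called higher in 5C against DMSO (Pdgfra, Dcn, Lrat and Pdgfrb) and none lower, and 1 was called higher in 5C against 3C (Col1a2). Their sum was 9451 and 8119 CPM in DMSO, 7256 and 7353 CPM in 3C, and 11843 and 12804 CPM in 5C, an order shared with Grb10, and this too was not tested. Of 10 cholangiocyte markers, 5 were called higher in 5C against DMSO (among them Epcam, Krt7 and Cftr) and none lower. In 5C against 3C, 1 was called lower and none higher. Their sum was 2930 and 3421 CPM in DMSO, 3600 and 3790 CPM in 3C, and 2733 and 2428 CPM in 5C. The sum was thus lowest in 5C. Of 10 mesothelial markers, 8 were called higher in 5C against DMSO, with Lrrn4 (3.01), Krt14 (2.03), Rspo1 (1.77) and Upk1b (1.39) furthest, and none lower.

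Of 10 tested endothelial markers, 5 were called higher (among them Cdh5, Pecam1, Egfl7 and Tek) and 3 lower in 5C against DMSO, and 3 were called higher in 5C against 3C (Cdh5, Egfl7 and Kdr). The 3 lower markers, named after their values were seen, were Vwf (log2 fold change -2.43), Lyve1 (-2.42) and Stab1 (-1.68). The sum over the list was 2324 and 1841 CPM in DMSO, 926 and 920 CPM in 3C, and 713 and 746 CPM in 5C, and most of it was Stab1, which macrophages also express. Pecam1 was at 0.878 and 0.698 CPM in DMSO, 3.11 and 8.77 CPM in 3C, and 22.3 and 41.4 CPM in 5C. The ratio of replicate 1 to replicate 2 was 0.355 in 3C and 0.539 in 5C for Pecam1, but 1.01 and 0.956 for the sum over the list. The part of endothelial cells in the levels of the imprinted genes was not tested.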

How the data were processed

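Bulk RNA-seq profiles of 6 dHep cultures were compared, 2 libraries each for DMSO, 3C and 5C. Per the labels, libraries were made with the NEBNext Ultra RNA kit, which does not mark strand, and per the study's methods they were read in pairs and mapped to GRCm39; the submitters' processing notes name featureCounts, Subread and DESeq2 without a role. The count table deposited by the authors holds estimated counts, whole numbers that were not normalized. An excess of values at multiples of 4 was seen, so 1 fragment may count as 4 units. The FPKM table deposited by the authors was scaled by them for gene length and library total. Counts without strand cannot separate antisense partners, and the treatment of reads shared by overlapping genes is not given in the sources used here. No column was left out.

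Estimated counts were tested in edgeR 4.0.16 (R 4.3.3) by its quasi-likelihood F test, with TMM normalization, filterByExpr and robust dispersions, in 1 model of all 6 libraries with 3 group terms and 3 residual degrees of freedom (common coefficient of biological variation 18.4%). P-values were adjusted over all 19135 genes tested, and an adjusted p in the text without another name comes from this test. The SE was derived from the log2 fold change and its F statistic. The steps were tested on simulated data. Alternatives were RLE and upper quartile normalization, other filters (1 count in all or 10 in every library), DESeq2 1.42.0, 4-library fits, a replicate block, other thresholds, counts divided by 4, limma 3.58.1 on log2 FPKM with a pseudocount of 1 or of 0.1, and fits with each library left out in turn.

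Members that reached 1 CPM in a library are described library by library, and from each companion list up to 4 called genes are named per comparison of 5C. A marker gene that this rule would name is not reported here. The members and lists were chosen with earlier results of these data known. Positions came from GENCODE for GRCm39, which holds 33 of the 34 members (Zrsr1 had no match). Sequences came from RefSeq tables of GRCm38.p6, in which 27 of 34 members had a promoter; H19, Peg10, Sgce, Cdkn1c, Rtl1, Impact and Peg13 had none. Exonic bases shared with other genes were counted over all transcripts of GENCODE. Figures were drawn with matplotlib 3.10.9.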

Additional observations from a re-analysis of the deposited data

How the results depend on the processing

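Counts of imprinted genes past the limits, here with H19 included as a description, 7 in 5C against DMSO, 6 in 3C against DMSO and 1 in 5C against 3C, depended mostly on the fold limit. With the adjusted p alone they were 12, 11 and 6 (all genes 5485, 4689 and 2423), and tested against a log2 fold change of 1 they were 4, 2 and 1 (all genes 1160, 771 and 38). With limma on log2(FPKM + 1) the calls among all genes were 1231, 958 and 261. In 5C against 3C, 2 imprinted genes were called in the 4-library fit and with limma on log2(FPKM + 0.1). Leaving out 1 library gave 5 to 8, 3 to 6 and 1 to 2 imprinted genes, and 1923 to 2191, 1535 to 1784 and 381 to 642 of all genes; the lowest of the last range was without 5C replicate 2. Replicates that share a number did not deviate together (r from -0.031 to 0.016 over 19135 genes), and a replicate block gave 8, 6 and 1 imprinted genes and 2125, 1737 and 536 of all genes. The cause of these differences was not tested, except that a stricter or looser limit calls fewer or more genes by construction.

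Directions turned only for log2 fold changes reported between -0.47 and 0.34. Leaving out 1 library gave these ranges of log2 fold change in 5C against DMSO: Meg3 (-0.18 to 0.26), Rian (-0.09 to 0.58), Dio3 (-0.10 to 0.52), Kcnq1ot1 (-0.41 to 0.56), Phlda2 (-0.62 to 0.34), Peg10 (-0.35 to 0.26), Ppp1r9a (-1.05 to 0.26) and Snrpn (-0.01 to 0.35). In 3C against DMSO they were Igf2r (-0.27 to 0.00), Dlk1 (-0.03 to 0.21), Kcnq1ot1 (-0.49 to 0.30) and Zrsr1 (-0.17 to 0.16). In 5C against 3C they were H19 (-0.33 to 0.62), Igf2 (-0.98 to 0.15), Kcnq1ot1 (-0.26 to 0.64), Ascl2 (-0.59 to 0.21), Asb4 (-0.69 to 0.31), Ppp1r9a (-1.27 to 0.04), Snrpn (-0.25 to 0.11), Nnat (-0.05 to 0.88) and Slc38a4 (-0.20 to 0.06). With limma, Ppp1r9a in 5C against DMSO was 0.04 and 0.03 (pseudocounts 1 and 0.1), and Slc38a4 in 5C against 3C was 0.00 with both. Zrsr1 in 3C against DMSO was 0.01 with limma and with upper quartile normalization. Of 522 alternative values of imprinted genes in 5C against DMSO, 476 kept direction and side of the limits, 16 were lost, 15 gained a call and 15 turned. The 2 libraries a group and levels of a few CPM limit what Dlk1, Kcnq1ot1, Phlda2, Dio3 and Mkrn3 can show.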
